A study of Mus musculus with 12 samples.

Results

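The genes described here encode the ligands and receptors of a pair of chemokine axes, the CCL5 axis (Ccl3, Ccl4, Ccl5 and the receptor gene Ccr1) and the XCL1 axis (Xcl1 and the receptor gene Xcr1). They were chosen by gene symbol, and all 6 were found among the 750 genes measured. Tumors of the K14-Cre;Brcaf/fTrp53f/f model, in which the keratin 14 promoter drives Cre in epithelium and deletes Brca1 and Trp53, were grown as transplants in syngeneic female FVB/129P2 mice, in the mammary fat pad. By the design of the model, the tumor cells therefore lack both tumor suppressors, whatever the treatment. Treatment began at 150 to 300 mm3. Vehicle mice received intraperitoneal DMSO in saline and an intratumoral injection of saline, ADUS100 mice (here ADU-S100) intraperitoneal DMSO (diluted in saline per the labels, in PBS per the study's methods) and a single intratumoral dose of 50 μg ADU-S100 in 40 μl, Olaparib mice daily intraperitoneal olaparib at 50 mg/kg and intratumoral saline, and Olaparib+ADUS100 mice both drugs (here the combination). Olaparib inhibits the DNA repair enzyme PARP, whereas ADU-S100, a cyclic dinucleotide, is an agonist of STING. Tumors were taken at 3 days, 3 per group and 12 in all, and 100 ng of RNA from each was counted on an nCounter immune panel, where color-coded probes are counted without amplification. The labels give no age of the mice.

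Chemokines are small secreted proteins that draw leukocytes along a gradient. CCL3, CCL4 and CCL5 are made by macrophages, activated T cells and NK cells, and CCL5 is also induced by interferons and by signaling through STING and IRF3. CCL3 and CCL5 bind CCR1, carried by monocytes, macrophages and neutrophils. XCL1 comes mainly from NK cells and CD8+ T cells, and its receptor XCR1 marks the dendritic cells that cross-present antigen.

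Counts were recovered from the deposited normalized counts by taking each tumor's values as whole numbers times 1 factor. The factors could not be recomputed from control probes, and the authors had also corrected for background, so recovered counts and their intervals rest on that reading of the values. Per tumor, their total lay between 106206 and 1519471, and the factor ranged from 0.589 to 10.5. The highest factor and the lowest total belonged to olaparib tumor 1517, whereas the 3 combination tumors all had factors between 0.810 and 0.824. As a guide to background, the median recovered count of the 30 lowest genes was 3 to 8 per tumor. Leukocyte transcripts were present in every group, since Ptprc, the gene of CD45, lay between 152 and 1003 normalized counts. Of the epithelial markers, Epcam had a mean normalized count of 9687 ± 3493 in vehicle tumors (SD, n = 3). The limma p-values below rest on the spread between tumors of one group. The labels do not say whether the tumors of a group came from one donor tumor. In whole tumor RNA, fewer cells of a type and less RNA per cell cannot be told apart.

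Ccl5 had its highest group mean in the combination. The 3 tumors given both drugs had normalized counts of 1372, 462 and 446, and the 3 vehicle tumors 207, 75.8 and 51.3. ADU-S100 tumors held 524, 257 and 147, and olaparib tumors 222, 83.8 and 225. All 3 combination tumors lay above all vehicle and all olaparib tumors, and ADU-S100 tumor 1506 was the only tumor outside the combination to exceed the 2 lower combination tumors. The log2 fold change of the combination over vehicle was 2.80 (SE 0.70, 95% interval 1.27 to 4.34) on the log2(normalized count + 1) scale, where the median gene had 0.21. With limma, the adjusted p over all 689 genes tested was 0.278. Against olaparib the log2 fold change was 2.02 (SE 0.70, limma adjusted p = 0.594), and against ADU-S100 it was 1.27 (SE 0.70, limma adjusted p = 0.546). Ccl5 was well counted in most tumors, with 51 to 1694 recovered counts in 11 of them, but the value of olaparib tumor 1517 rests on 8 counts and has an exact Poisson interval of 36.2 to 165 normalized counts. Such intervals cover counting error only.

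Xcl1 was also highest in the combination, at 97.2, 181 and 72.1 normalized counts. The vehicle tumors had 21.8, 29.7 and 6.93, the ADU-S100 tumors 65.5, 23.6 and 18.5, and the olaparib tumors 35.1, 73.4 and 14.7. The combination tumors were above every vehicle and every ADU-S100 tumor, and olaparib tumor 1517, with 73.4, was the only other tumor to exceed the lowest of them. No gene of the 6 had all its combination tumors above the 9 others, as 3.19% of all genes tested did. The value of that olaparib tumor stands on 7 recovered counts and has an exact Poisson interval of 29.5 to 151 normalized counts. The log2 fold change of Xcl1 in the combination over vehicle was 2.62 (SE 0.72, 95% interval 1.05 to 4.20, limma adjusted p = 0.278). Over ADU-S100 it was 1.78 (SE 0.72, limma adjusted p = 0.492), and over olaparib it was 1.65 (SE 0.72, limma adjusted p = 0.594). Xcl1 is among the genes that the study picked for their increase in these same tumors, so that its direction is not independent evidence. With the log2 scaling factor as a covariate, the limma adjusted p of Xcl1 in the combination over vehicle was 0.0448. That is under the threshold of 0.05, which 4 of the 689 genes passed in that fit, all of them higher. The 3 combination tumors have nearly the same factor, so the covariate cannot fully tell factor and group apart. With every tumor scaled to the same median, the limma adjusted p of Xcl1 was 0.0777. Over the 25 alternatives, which include tests other than limma, its adjusted p ran from 0.0448 to 0.994.

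Ccl3 was lowest in vehicle and similar in the treated groups. Its normalized counts were 58.7, 23.8 and 22.2 in vehicle tumors, 88.3, 226 and 61.4 in ADU-S100 tumors, 115, 115 and 44.8 in olaparib tumors, and 168, 52.8 and 69.7 in combination tumors. Every ADU-S100 tumor was above every vehicle tumor, whereas olaparib and combination values overlapped those of vehicle. The log2 fold changes over vehicle were 1.73 for ADU-S100, 1.39 for olaparib and 1.41 for the combination (SE 0.65 each, limma adjusted p = 0.809, 0.582 and 0.638). The difference between the combination and olaparib was 0.02, with a 95% interval of -1.41 to 1.45 that leaves room for more than a doubling either way.

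Ccl4 was the ligand with the lowest recovered counts. The vehicle tumors had 17.1, 10.4 and 7.62 normalized counts, the ADU-S100 tumors 39.9, 31.4 and 9.99, the olaparib tumors 21.4, 83.8 and 18.9, and the combination tumors 45.4, 23.1 and 21.3. Olaparib and combination tumors all exceeded the vehicle tumors, and ADU-S100 tumor 1513 fell among them. The log2 fold change over vehicle was 1.47 in olaparib (SE 0.66, limma adjusted p = 0.582) and 1.27 in the combination (SE 0.66, limma adjusted p = 0.673). In 7 of the 12 tumors Ccl4 had fewer than 20 recovered counts, and in 4 it was no more than 2 times the median of the lowest genes.

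**Figure D1:**
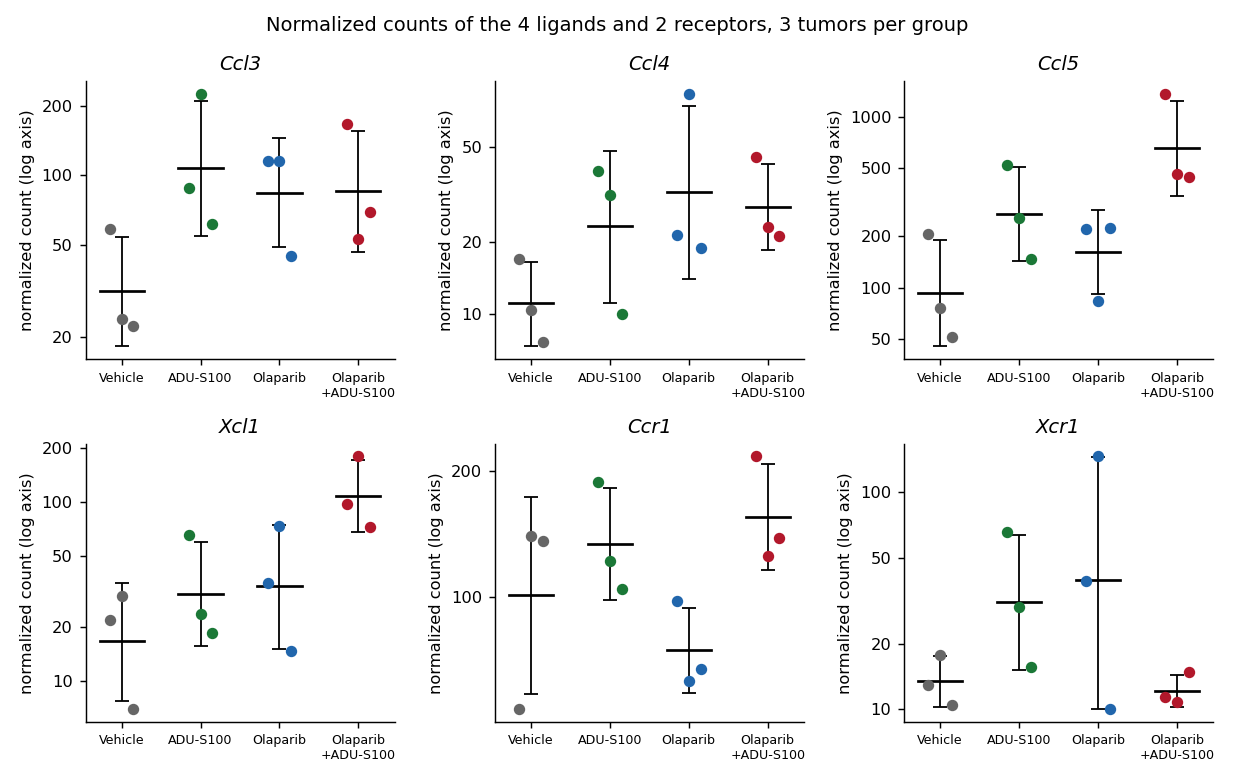
Normalized counts (log axis) of the 4 ligand and 2 receptor genes in each of the 12 tumors, by treatment group. Points are tumors, horizontal lines are means of log2(normalized count + 1) turned back to counts, and bars are 1 SD on that scale. The highest single value of Ccl5 and of Xcl1 is in a combination tumor, and the widest spread of Xcr1 is in olaparib, from 10.02 to 147.

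Of the receptors, Ccr1 varied least. It measured 53.9, 140 and 136 normalized counts in vehicle tumors, 188, 122 and 104 in ADU-S100 tumors, 97.4, 62.9 and 67.2 in olaparib tumors, and 216, 125 and 138 in combination tumors. Vehicle tumor 1269 was the lowest of the 12, and the combination tumors were all above the olaparib tumors. The log2 fold change of the combination was 0.62 over vehicle (SE 0.46, limma adjusted p = 0.887) and 1.05 over olaparib (SE 0.46, limma adjusted p = 0.594). The change of Ccr1 in ADU-S100 over vehicle, 0.40 (SE 0.46, limma adjusted p = 0.878), turned to -0.0050 with every tumor scaled to the same median and to -0.19 with quantile normalization.

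Xcr1, the receptor of XCL1, had its lowest group mean in the combination, where its ligand had the highest. Its normalized counts were 13.0, 17.8 and 10.4 in vehicle, 65.5, 29.5 and 15.7 in ADU-S100, 39.0, 147 and 10.02 in olaparib, and 11.3, 10.7 and 14.8 in the combination. The combination tumors were all below the ADU-S100 tumors and within the range of the vehicle tumors. The log2 fold change of the combination was -1.30 against ADU-S100 (SE 0.80, limma adjusted p = 0.605) and -1.61 against olaparib (SE 0.80, limma adjusted p = 0.594). Before scaling, however, Xcr1 was nearly level. The recovered counts were 19, 12 and 15 in vehicle, 23, 15 and 11 in ADU-S100, 20, 14 and 17 in olaparib, and 14, 13 and 18 in the combination. All 12 tumors thus had between 11 and 23 counts, or 1.62 to 4.67 times the median of the lowest genes in the same tumor. Across the 12 tumors the log2 value of Xcr1 had a Pearson r of 0.97 with the log2 scaling factor, a description of tumors that share that factor with the value. That r was 0.62 for Ccl4, 0.42 for Ccl3, 0.26 for Xcl1, -0.13 for Ccr1 and -0.24 for Ccl5. In a fit with the log2 factor as a covariate, the change in Xcr1 of the combination against ADU-S100 was -0.11 and that against olaparib was -0.25. Without olaparib tumor 1521, which had the lowest Xcr1 value, the difference from olaparib was -2.55 (limma adjusted p = 0.0410), and without olaparib tumor 1517, which had the highest, it was -0.67 (limma adjusted p = 0.828). In the fit without tumor 1521, 12 genes of the 689 were higher and 42 lower past the adjusted threshold in this comparison. The 3 combination tumors have nearly the same factor, so that the covariate cannot fully tell factor and group apart, here and for Xcl1.

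**Figure D2:**
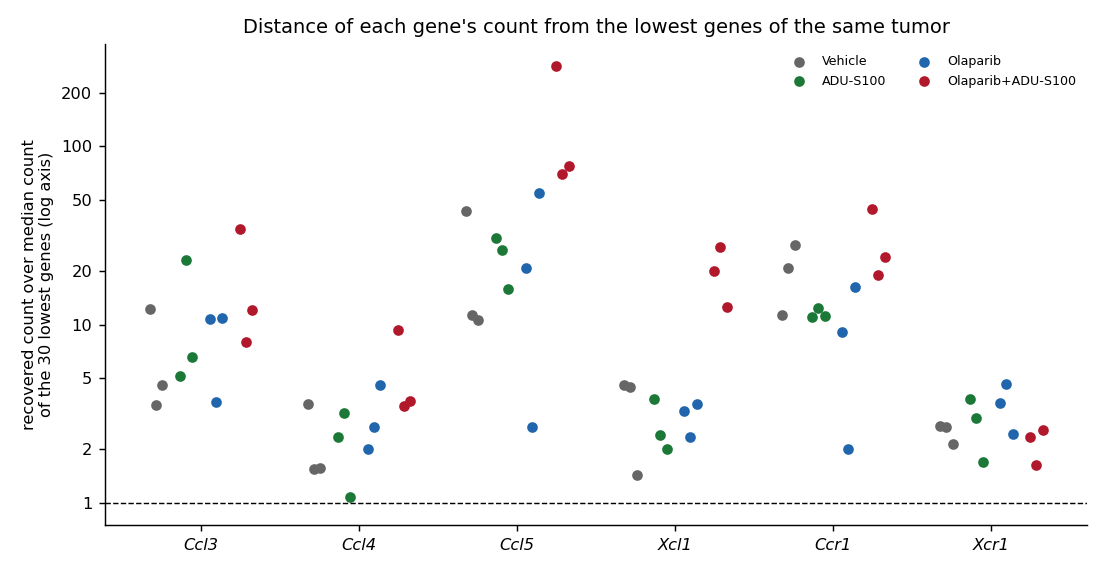
Recovered count of each gene divided by the median recovered count of the 30 lowest genes of the same tumor (log axis), for the 12 tumors. The dashed line marks a ratio of 1. Xcr1 stays between 1.62 and 4.67 in all groups, while Ccl5 reaches 282.

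CCL5 also binds CCR3, a receptor typical of eosinophils. Ccr3 averaged between 4.32 ± 3.04 (vehicle) and 26.2 ± 32.0 (olaparib) normalized counts (SD, n = 3) and did not pass the filter on low values. Its recovered counts were only 2 to 12 over all tumors. The olaparib mean includes tumor 1517, where 6 recovered counts became 62.9 after scaling. The scavenger receptors of these ligands were not analysed here.

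All 6 genes passed the filter, and none passed the adjusted threshold in any of the 8 comparisons, as was true of all 689 genes tested (0%). With edgeR's quasi-likelihood test, 0 of the 6 passed as well, whether the recovered counts were scaled by TMM or by the factors read from the values. The counts at an unadjusted limma p under 0.05, and of groups that do not overlap, are given here beside the share of all genes that met the same rule. In the combination over vehicle, Ccl5 and Xcl1 were higher at the unadjusted p (7.55% of all genes), and Ccl4, Ccl5 and Xcl1 had no overlap (18.4%). In ADU-S100 over vehicle this held for Ccl3 alone, by the unadjusted p (4.64%) and by the absence of overlap (13.9%). In olaparib over vehicle it held for Ccl4 alone, against 5.81% and 3.77% of all genes. In the combination over ADU-S100, Xcl1 was higher by both rules (4.50% and 10.4%), and Xcr1 was lower without overlap (20.9%). In the combination over olaparib, Ccl5, Xcl1 and Ccr1 were higher at the unadjusted p (4.50%), and Ccl5 and Ccr1 had no overlap (11%).

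Taking the drugs as factors, any ADU-S100 against none gave 3 of the 6 genes at an unadjusted p under 0.05 (3.05% of all genes), namely Ccl5 with a log2 difference of 1.77 (SE 0.49), Xcl1 with 1.25 (SE 0.51) and Ccr1 with 0.73 (SE 0.33), each with a limma adjusted p of 0.999. Any olaparib against none gave Xcl1 alone (6.10%), with 1.38 (SE 0.51, limma adjusted p = 0.529). The interaction, the difference that ADU-S100 made on top of olaparib less the one it made alone, gave Xcr1 alone, on the lower side (9%), at -2.78 (SE 1.13, limma adjusted p = 0.411). With the scaling factor as a covariate the interaction was -0.34 for Xcr1 and 2.50 for Xcl1 (limma adjusted p = 0.863 and 0.452). The interaction was 0.49 for Ccl5 (SE 0.99) and 0.81 for Xcl1 (SE 1.02), so a sum of single effects and a departure from it could not be told apart for either ligand.

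The median log2 fold change of the 6 genes was 1.34 in the combination over vehicle, beside 0.21 for all genes, 1.09 beside 0.44 for ADU-S100, and 1.18 beside 0.45 for olaparib. Scaling every tumor to the same median took the medians of all genes to 0.02, 0.04 and 0.10. On that scale the change in the combination over vehicle was 2.60 for Ccl5 and 2.44 for Xcl1. The tumor numbers begin with 12 or 15, and the labels do not say why. In the 12 series, Ccl5 stood at 1372 and 462 in the combination tumors and 207 in the vehicle tumor, and in the 15 series at 446 in the combination tumor and 75.8 and 51.3 in the vehicle tumors. With the series as a block, Ccl5 had a log2 fold change of 2.38 and Xcl1 of 2.39 over vehicle (limma adjusted p = 0.609 and 0.666). All ADU-S100 and olaparib tumors are of the 15 series, as is 1 of the 3 combination tumors. With the block, Ccl5 in the combination was 0.43 over ADU-S100 and 1.17 over olaparib, in place of 1.27 and 2.02, and Xcl1 was 1.31 and 1.18, in place of 1.78 and 1.65 (limma adjusted p = 0.998 over ADU-S100 and 0.98 over olaparib).

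**Figure D3:**
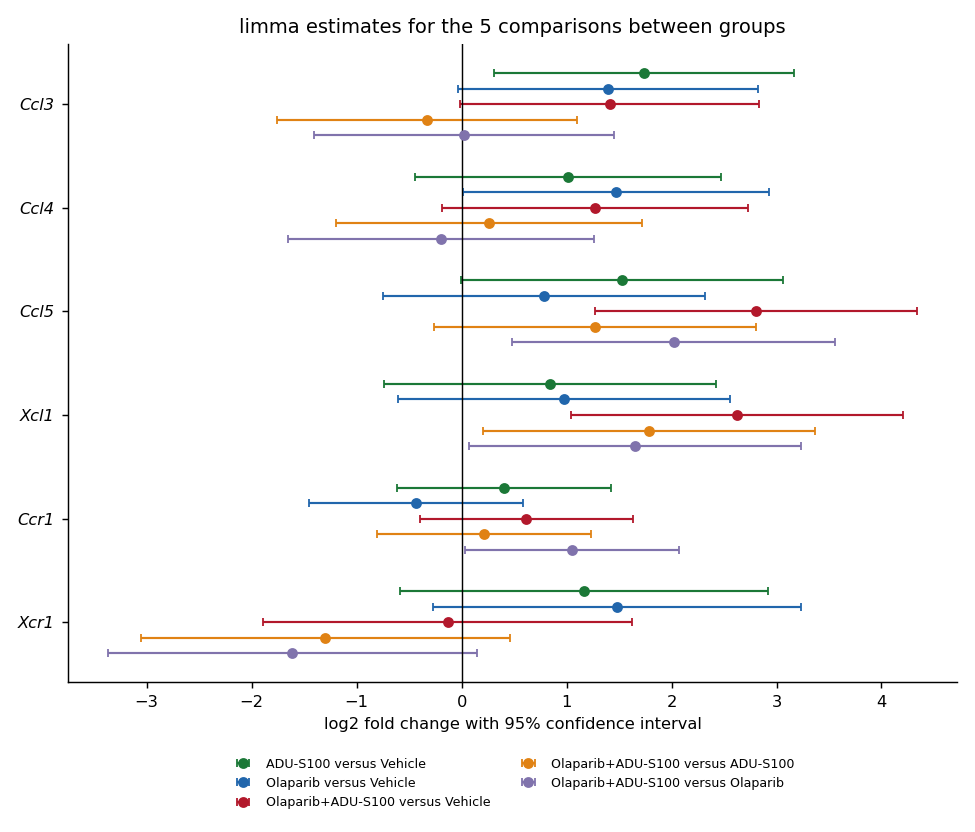
Log2 fold changes of the 6 genes (points) with 95% confidence intervals (bars) from limma, for the 5 comparisons between groups named in the legend. The vertical line marks no change. The interval lies above 0 in all 3 combination comparisons for Xcl1, and in those against vehicle and olaparib for Ccl5, but none of the adjusted p-values is below 0.05.

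Ordered by mean log2 value, Ccl5 ran combination, ADU-S100, olaparib, vehicle, and Xcl1 ran combination, olaparib, ADU-S100, vehicle. Ccl3 ran ADU-S100, combination, olaparib, vehicle, and Ccl4 ran olaparib, combination, ADU-S100, vehicle. Vehicle was thus the lowest group for all 4 ligands. The receptors had other orders, with Ccr1 lowest in olaparib and Xcr1 lowest in the combination. For all 6 genes, every pair of neighbours in the order overlapped between tumors.

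A ratio of 2 genes in the same tumor cancels the scaling factor, except for the 1 added to each normalized count before the log. That addition matters most at low counts. A ratio has no meaning as a level, because probes differ in efficiency, so only differences between tumors are read. The log2 ratio of Xcl1 to Xcr1 was 3.05 ± 0.87 in the combination (SD, n = 3), 0.30 ± 0.71 in vehicle, -0.03 ± 0.27 in ADU-S100 and -0.21 ± 0.75 in olaparib. The 3 combination tumors lay between 2.21 and 3.95 and the other 9 tumors between -0.99 and 0.71. Xcr1 had 11 to 23 recovered counts in every tumor, whatever the depth, so this ratio mostly restates the recovered counts of Xcl1, which were 88 to 219 in the combination and 7 to 32 in the other tumors, and does not cancel the differences in depth.

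The log2 ratio of Ccl5 to Ccr1 was 2.07 ± 0.52 in the combination, 1.01 ± 0.49 in ADU-S100, 1.11 ± 0.66 in olaparib and -0.11 ± 1.78 in vehicle. Vehicle tumor 1269, at 1.92, stood above the other vehicle tumors, at -0.87 and -1.39, and above combination tumors 1270 and 1539, at 1.87 and 1.69. Olaparib tumor 1521, at 1.73, was also above combination tumor 1539. Xcl1 relative to Ptprc was -1.92 ± 0.66 in the combination and -3.99 ± 1.22 in vehicle, and Ccl5 relative to Ptprc 0.67 ± 0.99 and -1.58 ± 1.76. The group means of both ratios were thus higher in the combination than in vehicle, but the tumors overlapped. For Ccl5 to Ptprc the combination tumors had 1.81, 0.13 and 0.08. Vehicle tumor 1269, at 0.44, and olaparib tumor 1521, at 0.22, exceeded the lower of these. For Xcl1 to Ptprc, olaparib tumor 1517, at -2.39, exceeded combination tumor 1539, at -2.53. The combination was not tested against vehicle for these ratios.

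In all, 12 ratios were each compared for any ADU-S100 against none and for any olaparib against none with two-sided exact permutation tests over 6 and 6 tumors, 24 tests in all, where the smallest possible p is 0.0022. The arrangements mixed all 12 tumors without holding the other drug fixed. The spread behind these p-values therefore also takes in differences due to the other drug. After Benjamini-Hochberg adjustment over the 24, none was below 0.05. The smallest p was that of Xcl1 to Ptprc for any olaparib, with a log2 difference of 1.44 (exact permutation p = 0.015, adjusted p = 0.34). For Xcl1 to Xcr1 the difference was 1.47 with any ADU-S100 (exact permutation p = 0.108, adjusted p = 0.34) and 1.29 with any olaparib (exact permutation p = 0.156, adjusted p = 0.34). For Ccl5 to Ccr1 it was 1.05 and 1.14 (exact permutation p = 0.145 and 0.102, adjusted p = 0.34 for both).

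**Figure D4:**
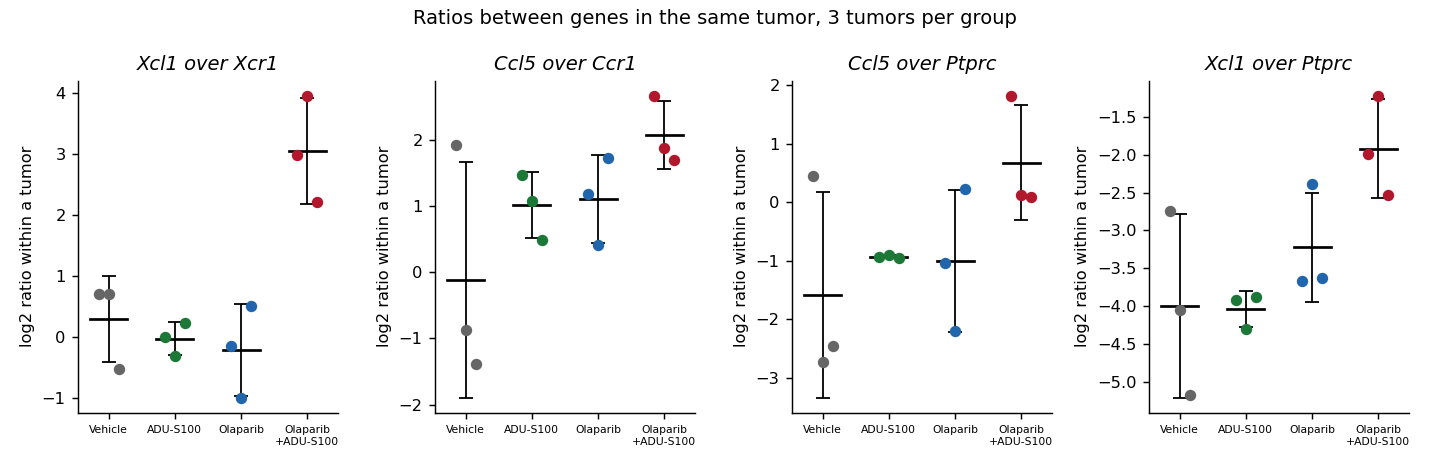
Log2 ratios of 4 gene pairs within each of the 12 tumors, by treatment group. Points are tumors, lines are means and bars are 1 SD (n = 3). For Xcl1 over Xcr1 the lowest combination tumor, at 2.21, is above the highest other tumor, at 0.71, with Xcr1 at 11 to 23 recovered counts in all tumors, while the other 3 panels overlap between groups.

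The genes most like each of the 6 across the 12 tumors were found by Pearson r of log2 values, given as a description with the r of deviations from group means (within groups) in parentheses. Xcl1 was closest to Cd3g and Cd3e, which encode chains of the T cell receptor complex, and to Slamf7, a receptor on NK and activated lymphoid cells, with r = 0.97, 0.93 and 0.96 (0.92, 0.90 and 0.93). Against the mean of the 8 T cell markers that passed the filter, r was 0.94 for Xcl1 (0.95) and 0.45 for Ccl5 (-0.03). Within groups Xcl1 also had r of 0.85 with the mean of the NK and cytotoxic genes, 0.83 with the STING, IRF and NF-kB genes and 0.80 with the epithelial markers. Ccl5 was closest to Cd69, an early activation marker of lymphocytes, Cfb, a complement factor, and Ifit2, an interferon-stimulated gene, with r = 0.87, 0.84 and 0.84 (0.76, 0.70 and 0.82). Against the mean of the interferon-stimulated genes its r was 0.77 (0.73), and that of Xcl1 was 0.76 (0.58).

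Ccl3 was closest to Il1a, a cytokine gene, Cd274, which encodes PD-L1, and Isg20, an interferon-stimulated exonuclease, with r = 0.84, 0.83 and 0.81 (0.82, 0.77 and 0.61). Ccl4 was closest to Lilra5, Ccrl2 and Fpr2, which encode receptors of myeloid cells, with r = 0.89, 0.88 and 0.84 (0.86, 0.82 and 0.84). Among the genes closest to Ccr1 were Ncf4, a subunit of the phagocyte oxidase, and Csf3r, the receptor of the neutrophil growth factor G-CSF, with r = 0.84 and 0.81 (0.88 and 0.74). Xcr1 was closest to Ifna1, Itch and H2-Q2, with r = 0.97, 0.96 and 0.96 (0.96, 0.95 and 0.96), of which Ifna1 had 8 to 17 recovered counts over all tumors, H2-Q2 9 to 76 and Itch 524 to 1950. Among the 6 genes, r was 0.76 (0.67) for Ccl3 and Ccl4, 0.57 (0.45) for Ccl3 and Ccl5, 0.46 (0.31) for Ccl4 and Ccl5, 0.65 (0.15) for Ccl5 and Xcl1, and 0.26 (0.78) for Xcl1 and Xcr1. The tumors share their scaling factor in all of these values.

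**Figure D5:**
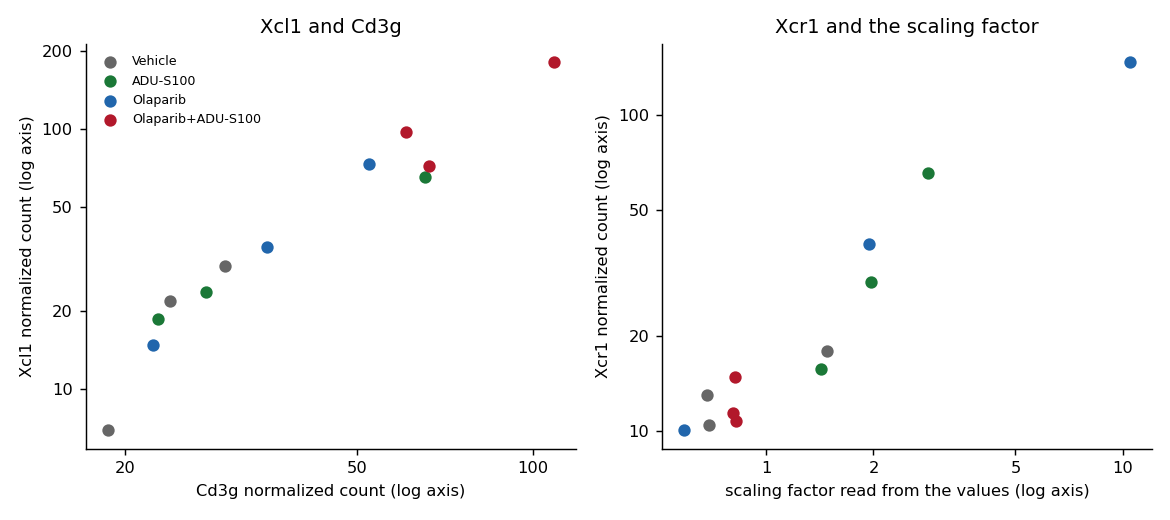
Left, normalized counts of Xcl1 against Cd3g in the 12 tumors (log axes), colored by group. Right, normalized counts of Xcr1 against the scaling factor read from the values of the tumor (log axes). Pearson r of the log2 values is 0.97 in both panels, and the tumor at the upper right of the second panel is olaparib tumor 1517.

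The sequence next to the start of the gene is shown for Ccl3 and Xcl1, the ligand genes of the 6 that have an entry. RefSeq (build GRCm38.p6) gave a promoter entry for 4 of the 6 genes, Ccl3, Xcl1, Ccr1 and Xcr1. The 250 bases before the start are printed in lower case, with capitals for TATAA on either strand. They lie at chr11:83649379-83649628 for Ccl3 and at chr1:164935523-164935772 for Xcl1, both on the minus strand.
Ccl3: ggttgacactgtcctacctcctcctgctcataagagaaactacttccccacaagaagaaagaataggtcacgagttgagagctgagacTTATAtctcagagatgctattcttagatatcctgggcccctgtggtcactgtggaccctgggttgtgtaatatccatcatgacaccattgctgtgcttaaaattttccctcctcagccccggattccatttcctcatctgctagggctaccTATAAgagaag
Xcl1: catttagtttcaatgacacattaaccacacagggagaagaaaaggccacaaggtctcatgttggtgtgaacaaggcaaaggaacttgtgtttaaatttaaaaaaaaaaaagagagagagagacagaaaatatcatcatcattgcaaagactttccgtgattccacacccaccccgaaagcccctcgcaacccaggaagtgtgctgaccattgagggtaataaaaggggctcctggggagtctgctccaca
Ccl3 holds TATAA at -11 to -7 and its reverse complement, TTATA, at -162 to -158, counted from the start, and Xcl1 holds neither. TATAA, the core of the TATA box, was added after the sequences had been seen, and 22.7% of all 32536 promoter stretches of this length have it. The interferon-stimulated response element (GAAA, any 2 bases and GAAA, in 2.98% of the stretches), NF-kB (GGGA, any 2 bases and TTCC, 1.21%), STAT (TTCNNNGAA, 7.04%) and AP-1 (TGANTCA, 6.73%) motifs were searched on both strands and had no match in the 4 entries. That says only that these letters are not in this window.

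The other CC chemokines were, by their median, not higher in the combination. All 18 on the list were measured and 16 passed the filter, and their median log2 fold change in the combination over vehicle was -0.14, beside 0.21 for all genes and 1.34 for the 6 genes. At an unadjusted limma p under 0.05, 1 of the 16 was higher and 0 were lower. Ccl8, a monocyte attractant, ranged from 143 to 4088 normalized counts among the vehicle tumors and from 322 to 603 in the combination (log2 fold change -0.65, SE 1.40, limma adjusted p = 0.989). Ccl9, an attractant of myeloid cells, had a log2 fold change of 0.10 (SE 0.62, limma adjusted p = 0.989).

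Lists of the cells that make or answer these ligands were read in the combination over vehicle, where 0 genes of any list passed the adjusted threshold. Over all genes tested, 7.55% were higher at an unadjusted limma p under 0.05 and the median log2 fold change was 0.21. Of the 8 T cell markers that passed the filter, of 10 measured, 4 were higher and 0 lower at an unadjusted limma p under 0.05, and the median log2 fold change was 1.36. Cd4 had 1.75 (SE 0.52, limma adjusted p = 0.278) and Cd3d 0.98 (SE 0.83, limma adjusted p = 0.946). The summed normalized count of the 10 T cell markers ranged from 121 to 266 in vehicle, 201 to 518 in ADU-S100, 159 to 817 in olaparib and 382 to 617 in the combination, and its part in the Xcl1 differences was not tested. Of 12 NK and cytotoxic genes, 1 was higher and 0 lower, near the share over all genes, with a median of 0.75. The median of this list was 1.47 in ADU-S100 and 1.49 in olaparib over vehicle, beside 0.44 and 0.45 for all genes. Klrd1, an NK cell receptor, had 0.87 (SE 0.92) and Gzma, granzyme A, 1.40 (SE 0.97), with limma adjusted p = 0.962 and 0.830.

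The 4 measured genes of XCR1-type dendritic cells, Irf8, Flt3, Itgae and Tlr3, had a median log2 fold change of 0.51, and 0 passed the unadjusted p. Irf8, a transcription factor these cells need, had 0.89 (SE 0.52, limma adjusted p = 0.705) and Tlr3, a sensor of double-stranded RNA, 0.49 (SE 0.41, limma adjusted p = 0.946). The summed normalized count of the 4 was 410 to 714 in vehicle, 458 to 874 in ADU-S100, 532 to 1100 in olaparib and 799 to 838 in the combination. The highest tumor of each single-drug group was thus above the combination. The median tumor had 630 in vehicle, 548 in ADU-S100, 604 in olaparib and 819 in the combination. Of 14 monocyte, macrophage and neutrophil markers 3 were higher and 0 lower, with a median of 0.19, beside 0.21 for all genes. Lyz2, lysozyme, had -0.23 (SE 0.65) and S100a8, a neutrophil calprotectin subunit, 0.20 (SE 0.80), with limma adjusted p = 0.989 for both.

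Interferon-stimulated genes had the highest median of the lists with at least 4 genes tested, 1.59 over the 17 that passed the filter, beside 0.21 for all genes, with 8 higher and 0 lower at the unadjusted p (7.55% of all genes were higher). Ifit3 had 1.89 (SE 1.09, limma adjusted p = 0.705) and Bst2, tetherin, 1.45 (SE 0.60, limma adjusted p = 0.504). The summed normalized count of the list was 5788 to 30811 in vehicle, 10853 to 46044 in ADU-S100, 22262 to 62774 in olaparib and 36922 to 40485 in the combination. The highest tumor of each single-drug group was thus above the combination. The median tumor had 12704 in vehicle, 12123 in ADU-S100, 23013 in olaparib and 39020 in the combination. The 10 STING, IRF and NF-kB pathway genes had a median of 0.36 and 0 past the unadjusted p, with Irf1 at 0.82 (SE 0.47) and Rela at 0.40 (SE 0.34). The 4 leukocyte-wide genes had 0.27, with Ptprc at 0.55 (SE 0.57) and Itgb2 at 0.37 (SE 0.57), and the 4 epithelial markers 0.26, with Epcam at 0.47 (SE 0.51) and Cdh1 at 0.06 (SE 0.36), again with 0 past the unadjusted p. Of the 9 B cell and lymphoid tissue markers only 2 passed the filter, Cxcl13, a chemokine that draws B cells, at 2.65 (SE 1.02, limma adjusted p = 0.472) and Ms4a1, which encodes CD20, at 0.64 (SE 0.78, limma adjusted p = 0.985). The summed count of all 9 was 65.1 to 344 in vehicle, 145 to 236 in ADU-S100, 252 to 464 in olaparib and 372 to 667 in the combination.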

How the data were processed

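Normalized counts of 750 genes in 12 tumors were analysed, 3 each from 4 groups taken from the sample labels. The authors deposited a linear signal, nCounter counts put through quality control, background correction and scaling to positive controls and housekeeping genes in nSolver; counts under the negative controls were dropped, at a limit not given in the sources used here. Control probes were not analysed here. Within each tumor the low values are whole multiples of 1 step, from which counts were recovered (at least 99.87% of values whole within 0.01 of a count). Genes with at least 20 in at least 3 tumors were kept (689). Limma 3.58.1 in R 4.3.3 was fitted to log2(value + 1), with 1 mean per group, and p-values were adjusted over all kept genes with a threshold of 0.05. Ratios were tested with exact permutation tests, adjusted over all 24, of which those of 3 ratios are not reported here. edgeR 4.0.16 was run on recovered counts.

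The members and gene lists were chosen with earlier results of these data known. The genes named are the members, Ccr3, the 2 genes of highest mean in each list and the 3 genes most correlated with each member, less any not reported here.

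The alternatives were another pseudocount (10), no filter, a filter at 50, equal medians, quantile normalization, an intensity trend, the factor as a covariate, the tumor number series as a block, edgeR, background subtraction, fits on 2 groups, the methods' t-test and leaving out each tumor. The limma and edgeR fits, the count recovery and the permutation test were tested on simulated data. Figures were drawn with matplotlib 3.10.9.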

Additional observations from a re-analysis of the deposited data

How the results depend on the processing

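No paired analysis was possible because the tumor numbers are not shared between groups. The number of the 6 genes past the adjusted threshold was 0 in all 8 comparisons and stayed at 0 under the alternatives, with 3 exceptions. With the log2 factor as a covariate it was 1 in the combination over vehicle (Xcl1). Over the fits that left out 1 tumor it ran from 0 to 1 in the combination over olaparib and in the interaction, where Xcr1 passed without olaparib tumor 1521 (log2 values of -2.55 and -3.71, adjusted p = 0.0410 and 0.0264, among 12 genes higher and 42 lower, and 9 higher and 77 lower, of the 689 past the threshold in those fits) and had -0.67 and -1.84 without olaparib tumor 1517. The number of ratios past the threshold stayed at 0. Ccl5 in the combination over vehicle ranged from 2.27 to 3.37 and Xcl1 from 2.04 to 3.23 over 25 alternatives. Over all genes, 52 were higher and 1 lower in the combination over vehicle at an unadjusted p under 0.05. These counts were 109 and 7 with the covariate, 103 and 4 in the fit on 2 groups, 82 and 4 by the methods' t-test, 44 and 13 with equal medians, 33 and 17 with quantile normalization, and 34 and 28 with edgeR and TMM. The covariate, the fit on 2 groups and the methods' t-test put 4, 2 and 3 genes past the adjusted threshold. The split of the interaction, 13 higher and 62 lower, was 64 and 5 with the covariate and 49 and 49 with quantile normalization. Ccl4 and Xcr1 were not tested under the filter at 50, which removes them.

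The following changes turned in sign, and the cause was not tested. In ADU-S100 over vehicle, Ccr1 was -0.0050 with equal medians, -0.19 with quantile normalization and -0.20 with edgeR and TMM, and Xcl1 was -0.11 with quantile normalization. In the combination over ADU-S100, Ccl4 was -0.22 with the series as a block. In the combination over olaparib, Ccl3 was -0.56 with the block, and Ccl4 was 0.14 with quantile normalization, 0.59 with the factor as a covariate, 0.037 with edgeR and TMM, and 0.10 with background subtraction. In the interaction, Ccl4 was 0.12 with quantile normalization and 0.21 with the covariate, and Ccl5 was -0.19 with the covariate and -0.78 with the block. For any olaparib, Xcr1 was -0.051 with edgeR and TMM.

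Leaving out 1 tumor at a time gave these ranges across 0. Xcr1 ran from -0.30 to 0.061 in the combination over vehicle, from -0.69 to 0.25 for any ADU-S100 and from -0.38 to 0.56 for any olaparib. Ccr1 ran from -0.043 to 0.64 in ADU-S100 over vehicle, from -0.024 to 0.46 in the combination over ADU-S100 and from -0.33 to 0.012 for any olaparib. Ccl3 ran from -0.81 to 0.21 in the combination over ADU-S100 and from -0.47 to 0.36 over olaparib. Ccl4 ran from -0.32 to 0.63 and from -0.58 to 0.47 in the same comparisons, and Ccl5 from -0.082 to 0.96 in the interaction. Among the ratios with any ADU-S100, Ccl3 to Ccr1 ran from -0.21 to 0.47, Ccl3 to Ptprc from -0.10 to 0.51, Ccl4 to Ptprc from -0.52 to 0.14 and Ccr1 to Ptprc from -0.052 to 0.26. With any olaparib, Ccr1 to Ptprc ran from -0.23 to 0.12 and Xcr1 to Ptprc from -0.36 to 0.39.

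Depth limits Xcr1 and Ccl4 most, and olaparib tumor 1517, where no member exceeds 14 recovered counts.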
